A study of Sus scrofa with 20 samples.

Results

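The genes described here are 6 smooth muscle genes of the pig, ACTA2, ACTG2, MYH11, CNN1, TAGLN and LMOD1, followed across 4 skin sites. They were chosen by name, and each of the 6 symbols matched 1 Ensembl identifier among the 19280 in the deposited gene table. The table holds RNA-seq estimated counts from 4 mm skin biopsies of 5 female wild-type Yorkshire pigs, each biopsied at 4 places, labelled volar foot, snout, dorsal foot and flank, which gives 20 libraries. Pigs are named here by their age of 4, 5, 6, 7 or 8 months. All were untreated as far as the labels say, and no group differs from another in genotype, strain or sex. Whole biopsies hold epidermis, dermis, vessels, glands and any hair follicles together, so fewer smooth muscle cells and less RNA per cell cannot be told apart.

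Smooth muscle in skin lies mainly in the walls of arterioles and veins and in the arrector pili, the small muscles that pull on hair follicles, while pericytes, the dermal sheath of the follicle and the myoepithelium of sweat glands share part of the same programme. Its contractile unit is built of actin filaments (ACTA2 and ACTG2 encode the alpha and gamma smooth muscle actins) and myosin filaments (MYH11 encodes the smooth muscle myosin heavy chain). CNN1 encodes calponin and TAGLN transgelin, which bind actin and are standard markers of differentiated smooth muscle, and LMOD1 encodes leiomodin, which nucleates smooth muscle actin filaments. Hairy skin carries arrector muscles and the sole does not, whereas both carry vessels, so the question put to the data was whether the 6 genes followed hair genes or vessel genes.

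The libraries fall into 2 sets by their library numbers. Pigs of 4, 7 and 8 months make up the first set (12 libraries), and those of 5 and 6 months the second (8 libraries). The site labels of the second set are at odds with those of the first. EN1, which patterns ventral limb skin, averaged 11.8 CPM in first-set volar libraries and 17.3 CPM in second-set libraries labelled flank. ALX1, a gene of facial mesenchyme, averaged 18.5 CPM in first-set snout libraries and 19.4 CPM in second-set libraries labelled volar. Over the 2000 most variable genes, each of the 8 second-set libraries correlated best with first-set libraries of a differently named site (r 0.78 to 0.87). Those labelled flank were closest to volar, those labelled volar to snout, those labelled snout to dorsal and those labelled dorsal to flank. The match was the same for 8 of 8 libraries without the 6 genes and the other smooth muscle lists, and without any gene of the lists used below. Within the first set 11 of 12 matched their own label best, and the 7-month flank library matched dorsal (r 0.71, against 0.67 for flank). Dorsal and flank were the sites least clearly told apart. The 6-month library labelled dorsal had an r of 0.81 with flank and 0.75 with dorsal. For libraries matched to volar or snout the next site had an r of at most 0.04. Tests were therefore run within each set between groups as labelled, and second-set groups are given by label with the matched site in brackets. Library totals were 34077861 to 66906489 counts. Levels are counts relative to library size after TMM scaling (CPM), and the same gene is compared between sites, since without transcript lengths the levels of different genes are not comparable. Skeletal muscle genes stood apart in 3 libraries, the 7-month snout library of the first set (summed 14300 CPM) and both second-set libraries labelled volar (6820 and 11100 CPM), against at most 91.2 CPM in the other 17.

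**Figure D1:**
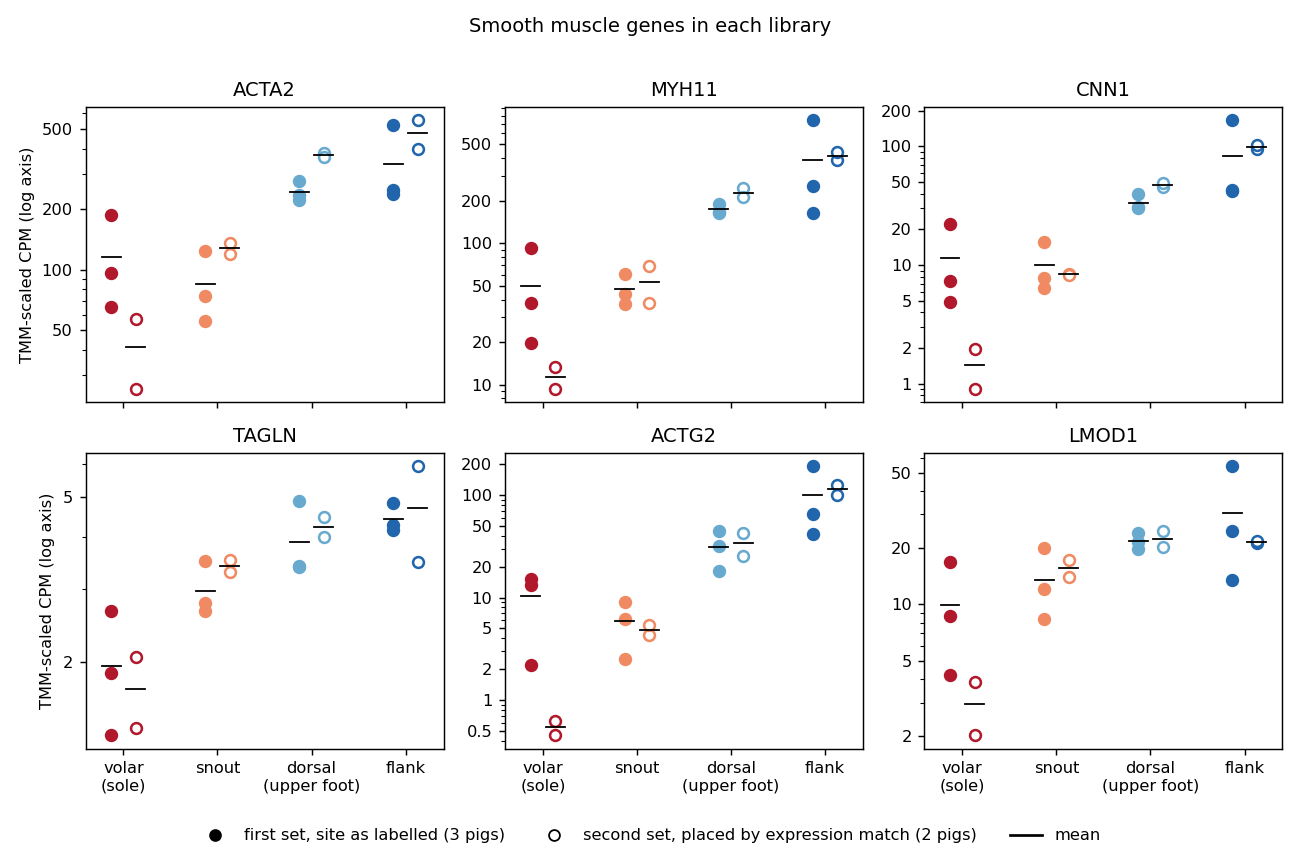
TMM-scaled CPM (log axis) of the 6 smooth muscle genes in each of the 20 libraries, by site; filled points are first-set libraries at their labelled site, open points are second-set libraries drawn at the site they matched, and bars are means of each set. Volar and snout libraries lie below dorsal and flank libraries for ACTA2, MYH11, CNN1 and ACTG2, with narrower steps for TAGLN and LMOD1.

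All 6 genes were lower in volar and snout skin than in dorsal and flank skin, in both sets. In the first set the difference between the mean of volar and snout and the mean of dorsal and flank was called for 6 of 6 genes (edgeR quasi-likelihood test with Benjamini-Hochberg adjusted p under 0.05), where 14.3% of all 15292 genes tested were called lower. The log2 fold change of ACTG2 was -2.83 ± 0.56 (standard error, adjusted p = 0.00335), that of MYH11 -2.41 ± 0.44 (0.00208) and that of CNN1 -2.30 ± 0.48 (0.00454). ACTA2 had -1.53 ± 0.31 (0.00343), LMOD1 -1.16 ± 0.39 (0.0429) and TAGLN -0.78 ± 0.19 (0.0112). The second-set groups labelled flank and volar (matched to volar and snout) were lower than those labelled snout and dorsal for 6 of 6 genes, where 20.8% of 15241 genes were called lower. The log2 fold changes were -5.24 ± 0.25 for ACTG2, -4.31 ± 0.21 for CNN1, -3.64 ± 0.23 for MYH11, -2.53 ± 0.26 for ACTA2, -1.70 ± 0.21 for LMOD1 and -0.89 ± 0.24 for TAGLN (adjusted p 4.3e-05 to 0.0233). Both sets therefore put ACTG2, CNN1 and MYH11 at the larger differences and TAGLN at the smallest of the 6. The median log2 fold change of the 6 genes was -1.91 in the first set and -3.09 in the second, beside -0.02 and -0.03 over all genes tested. LMOD1 lost its call in the first set in 8 of 12 fits that left out 1 library (highest adjusted p = 0.0977, without the 8-month flank library), and TAGLN in the second set in 6 of 8 (highest 0.0772, without the 5-month library labelled snout). LMOD1 also lost it with no filter on low counts (0.0504). Without the 7-month snout library, which held skeletal muscle RNA, 6 of 6 were called.

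Both smooth muscle actin genes were low at volar and snout and high at dorsal and flank. ACTA2 (ENSSSCG00000010447) had 96.9, 65.6 and 186 CPM in the volar libraries of the 4-, 7- and 8-month pigs and 56, 125 and 74 CPM in their snout libraries, against 222, 236 and 275 CPM in dorsal and 237, 250 and 525 CPM in flank libraries. The lowest dorsal or flank library was above the highest volar or snout library, as for MYH11, CNN1 and ACTG2 but not TAGLN and LMOD1, where 4.6% of all genes tested were lower with no overlap. In the second set, with the 5-month pig first, ACTA2 had 25.6 and 57 CPM in libraries labelled flank (matched to volar) and 136 and 120 CPM in those labelled volar (snout), against 382 and 363 CPM in those labelled snout (dorsal) and 554 and 399 CPM in those labelled dorsal (flank). ACTG2 (ENSSSCG00000008294) had 13.2, 2.21 and 15.3 CPM in volar and 9.08, 6.2 and 2.52 CPM in snout libraries, against 44, 18.2 and 32 CPM in dorsal and 64.8, 41.3 and 190 CPM in flank libraries. Its second-set levels were 0.628 and 0.457 CPM in libraries labelled flank and 4.31 and 5.44 CPM in those labelled volar, against 25.3 and 42.8 CPM in those labelled snout and 126 and 99.9 CPM in those labelled dorsal. In neither set did a volar or snout library, or one matched to them, reach a dorsal or flank library. In the second set 11.9% of all genes were lower with no overlap between these groups.

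ACTA2 and ACTG2 encode nearly identical proteins, as do the skeletal and cardiac actin genes ACTA1 and ACTC1, so the split of reads among them by the counting is uncertain. ACTA1, the skeletal muscle actin gene, averaged 986 ± 330 CPM in second-set libraries labelled volar (SD, n = 2) and 750 ± 1300 CPM in first-set snout libraries (SD, n = 3), against at most 0.957 CPM in every other group. ACTA2 and ACTG2 were among the lower values in those groups. The cytoplasmic actin genes gave small values. ACTB had a log2 fold change of -0.05 ± 0.21 (adjusted p = 0.887) in the first set for volar and snout against dorsal and flank and 0.02 ± 0.15 (0.949) in the matching groups of the second, and ACTG1 had -0.03 ± 0.15 (0.894) and -0.32 ± 0.10 (0.0393).

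MYH11 (ENSSSCG00000000146), the myosin heavy chain gene, had 38.1, 19.8 and 92.2 CPM in volar and 37.1, 60.6 and 44.1 CPM in snout libraries of the 4-, 7- and 8-month pigs, against 164, 190 and 167 CPM in dorsal and 254, 164 and 742 CPM in flank libraries. Its second-set levels were 13.3 and 9.32 CPM in libraries labelled flank and 69.3 and 37.6 CPM in those labelled volar, against 245 and 212 CPM in those labelled snout and 386 and 440 CPM in those labelled dorsal. The 2 groups of sites did not overlap, and the 8-month flank library was the highest of the 20. The non-muscle heavy chain gene MYH9 went the other way without a call, at 0.43 ± 0.19 (adjusted p = 0.117) in the first set and 0.23 ± 0.10 (0.105) in the second.

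CNN1 (ENSSSCG00000013614), the calponin gene, had 7.33, 4.86 and 22.4 CPM in volar and 6.47, 15.7 and 7.83 CPM in snout libraries, against 30.7, 30.1 and 39.5 CPM in dorsal and 42, 43.1 and 166 CPM in flank libraries. Second-set levels were 0.906 and 1.96 CPM in libraries labelled flank and 8.49 and 8.24 CPM in those labelled volar, against 45.3 and 48.9 CPM in those labelled snout and 94.8 and 102 CPM in those labelled dorsal. The groups did not overlap. Dorsal and flank were close in the first set, with at most 39.5 CPM in dorsal and at least 42 CPM in flank. CNN1 was not called between them in edgeR in the first set (adjusted p = 0.61) or between the matching groups of the second (0.333). CNN3, a calponin of non-muscle cells, was higher in the mean of volar and snout than in that of dorsal and flank of the first set (0.71 ± 0.11, adjusted p = 0.000769). That difference lay in snout, with a mean of 416 CPM. The volar mean of 101 CPM was below those of dorsal (115 CPM) and flank (137 CPM).

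TAGLN (ENSSSCG00000015073), the transgelin gene, was at low levels in every library, and how many of its reads the counted gene model captures was not tested, so its values here and below carry that limit. It had 2.66, 1.34 and 1.89 CPM in volar and 2.66, 3.5 and 2.78 CPM in snout libraries, against 3.41, 4.89 and 3.4 CPM in dorsal and 4.17, 4.84 and 4.27 CPM in flank libraries. Second-set levels were 1.39 and 2.06 CPM in libraries labelled flank and 3.3 and 3.52 CPM in those labelled volar, against 4.48 and 4 CPM in those labelled snout and 5.93 and 3.49 CPM in those labelled dorsal. Volar was low in each set, while the snout and dorsal ranges overlapped in the first. LMOD1 (ENSSSCG00000031201), the leiomodin gene, had 8.67, 4.22 and 16.8 CPM in volar and 8.35, 19.8 and 12.1 CPM in snout libraries, against 23.9, 19.7 and 21.5 CPM in dorsal and 24.5, 13.5 and 54.1 CPM in flank libraries. Its second-set levels were 2.02 and 3.88 CPM in libraries labelled flank and 17.1 and 14 CPM in those labelled volar, against 24.5 and 20.1 CPM in those labelled snout and 21.1 and 21.8 CPM in those labelled dorsal. The libraries labelled flank stood apart in the second set, while first-set volar libraries overlapped those of snout and flank.

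With the second set placed by the match, the order of median levels was volar, snout, dorsal, flank for 6 of 6 genes. ACTA2 had medians of 65.6 CPM in volar, 120 in snout, 275 in dorsal and 399 in flank (n = 5 libraries each), and ACTG2 2.21, 5.44, 32 and 99.9 CPM. Neighbours in this order overlapped between volar and snout and between dorsal and flank for 6 of 6 genes, and did not overlap between snout and dorsal for ACTA2 (56 to 136 CPM in snout, against 222 to 382 CPM in dorsal), MYH11, CNN1 and ACTG2, where 8.25% of all genes were lower in snout with no overlap. The placement rests on expression and tells dorsal from flank least clearly, so this order is a description. A fit over all 20 libraries so placed, with a term for set, called 6 of 6 genes lower in volar than in dorsal (beside 24.2% of all genes), 6 lower than in flank (29%) and 1 lower than in snout (20.7%). It called 4 lower in snout than in flank (13.1%), 4 lower in snout than in dorsal (8.76%) and 0 between dorsal and flank (1.44%). The gene called between volar and snout was TAGLN (-0.75 ± 0.20, adjusted p = 0.00709), joined by LMOD1 with the pig as a block (-1.27, 0.0257), where 23.5% of all genes were lower. With all 20 libraries at their deposited labels, edgeR called 0 of 6 genes and 0% of all genes in each of the 6 comparisons.

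**Figure D2:**
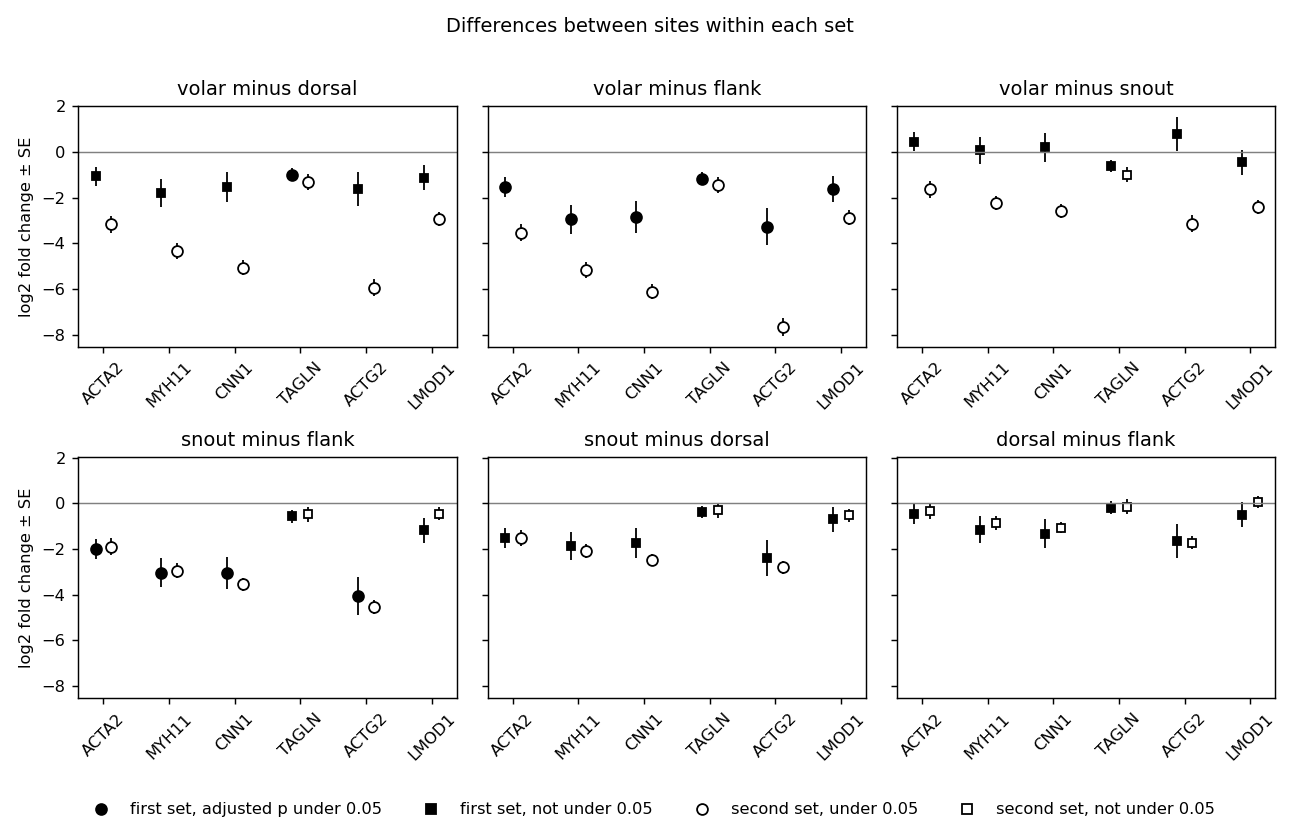
Log2 fold change ± standard error of each smooth muscle gene for the 6 pairs of sites within the first set (filled) and within the second set (open, by matched site); circles mark adjusted p under 0.05 and squares the rest. In the 3 pairs with volar the values of ACTA2, MYH11, CNN1, ACTG2 and LMOD1 are lower in the second set than in the first and those of TAGLN lie close, while 0 of the 36 differences between sets passed adjustment.

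Volar against flank was the pair with 6 of 6 genes called in each set. In the first set MYH11 was lower in volar by a log2 fold change of -2.95 ± 0.63 (adjusted p = 0.00534), ACTG2 by -3.26 ± 0.80 (0.0108), CNN1 by -2.86 ± 0.69 (0.0101), TAGLN by -1.17 ± 0.28 (0.00884), ACTA2 by -1.54 ± 0.43 (0.0195) and LMOD1 by -1.63 ± 0.56 (0.0454), where 15.9% of all genes were called lower. LMOD1 was the member whose volar and flank libraries overlapped, where 20.9% of all genes were lower in volar with no overlap. Its call was lost in 8 of 12 fits without 1 library (-0.95, adjusted p = 0.2, without the 8-month flank library). ACTA2 lost its call without that library (-1.08, 0.0752) and without the 4- or 7-month volar library (0.0646 and 0.0661). The matching second-set groups, labelled flank and dorsal, differed by -7.68 ± 0.39 for ACTG2 (6.16e-05), -6.13 for CNN1, -5.19 for MYH11, -3.53 for ACTA2, -2.87 for LMOD1 and -1.46 for TAGLN (0.0126), where 25.1% of genes were called lower. TAGLN lost its call there without the 5-month library labelled flank (0.0663) or dorsal (0.065).

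Within the foot, volar and dorsal skin did not overlap in the first set for 6 of 6 genes, where 20.9% of all genes were lower in volar with no overlap. Of the 6, 1 was called lower, where 10.1% of all genes were. The called gene was TAGLN (-0.99 ± 0.28, adjusted p = 0.0249). MYH11 reached -1.80 ± 0.60 (0.0532), ACTA2 -1.07 ± 0.43 (0.0948), CNN1 -1.53 ± 0.66 (0.121), ACTG2 -1.61 ± 0.76 (0.15) and LMOD1 -1.13 ± 0.55 (0.168). With the pig as a block 4 of 6 were called (13% of all genes lower), MYH11 at -2.06 ± 0.54 (0.0211), TAGLN at -0.97 ± 0.29 (0.0335), CNN1 at -1.77 ± 0.55 (0.0418) and ACTA2 at -1.15 ± 0.37 (0.0471). The count was 3 without the 8-month volar library, where MYH11 reached -2.59 (0.0161), ACTA2 -1.59 (0.0279) and CNN1 -2.45 (0.0304) and TAGLN lost its call (0.0699). It was 0 without the 7-month volar or dorsal library and 2 without the 7- or 8-month flank library. In the second set the matching groups, labelled flank and snout, gave 6 of 6 lower, with ACTG2 at -5.94 (0.000138), CNN1 at -5.07 (0.000137), MYH11 at -4.33 (0.000227), ACTA2 at -3.18 (0.000909), LMOD1 at -2.93 (0.000613) and TAGLN at -1.30 (0.0214), where 22.9% of genes were called lower. TAGLN lost its call there without the 5-month library labelled flank or snout or the 6-month library labelled snout (0.065 to 0.0998).

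Volar and snout skin gave no call among these genes in the first set. The 6 genes gave 0 calls in edgeR, in DESeq2 and in limma-voom, and 0 at an unadjusted p under 0.05, where 11.6% of all genes were called. ACTA2 had a log2 fold change of 0.45 ± 0.42 (adjusted p = 0.564), ACTG2 of 0.79 ± 0.75 (0.57), CNN1 of 0.21 ± 0.65 (0.889) and MYH11 of 0.08 ± 0.59 (0.954). LMOD1 had -0.44 ± 0.55 (0.686) and TAGLN -0.60 ± 0.28 (0.196). These p-values do not show the sites to be alike. The matching second-set groups, labelled flank and volar, differed for 5 of 6 genes, where 21.1% of genes were called lower. ACTG2 had -3.14, CNN1 -2.57, LMOD1 -2.41, MYH11 -2.24 and ACTA2 -1.64 (0.0118), while TAGLN had -0.99 (0.0589). ACTA2 lost its call without the 5-month library labelled volar (0.056), and TAGLN gained one without the 5- or 6-month library labelled dorsal (0.041 and 0.0387).

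The difference between the sets in this pair was tested as a set by matched site term. For volar minus snout it was -2.09 ± 0.65 for ACTA2 (adjusted p = 0.153), -3.93 ± 1.21 for ACTG2 (0.151) and -1.97 ± 0.80 for LMOD1 (0.24). Of the 36 such terms over 6 genes and 6 pairs, 0 had an adjusted p under 0.05 in edgeR and 14 an unadjusted p under 0.05, each of the 14 in a pair with volar (lowest adjusted p = 0.0858, ACTG2 in volar minus flank). Of all genes, 0.943% were called for that term, 0.497% for volar minus dorsal and 0.267% for volar minus snout. Second-set libraries labelled flank were below first-set volar libraries for ACTA2, MYH11, CNN1, ACTG2 and LMOD1, with no overlap, where 23.7% of all genes were lower with no overlap. The sets also differ in pigs, ages and library numbers, which cannot be told apart.

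Snout against flank gave 4 of 6 genes lower in the first set, where 5.45% of all genes were called lower. ACTG2 had -4.06 ± 0.83 (adjusted p = 0.0108), CNN1 -3.06 ± 0.70 (0.0171), MYH11 -3.03 ± 0.63 (0.0116) and ACTA2 -1.99 ± 0.44 (0.0143), while LMOD1 had -1.19 ± 0.55 (0.186) and TAGLN -0.57 ± 0.27 (0.199). ACTA2 and CNN1 lost their calls, at 0.05004 to 0.0635, without the 4- or 8-month snout library. The same 4 genes were called in the matching groups of the second set, labelled volar and dorsal, with ACTG2 at -4.54, CNN1 at -3.56, MYH11 at -2.95 and ACTA2 at -1.89 (0.0172), where 5.2% of genes were called lower. LMOD1 had -0.46 (0.339) and TAGLN -0.47 (0.407). ACTA2 lost its call without either library labelled volar or the 5-month library labelled dorsal (0.0655 to 0.115).

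Snout against dorsal gave no call in the first set in edgeR, where 7.92% of all genes were called. At an unadjusted p under 0.05 there were 4 genes, and DESeq2 called 4. No share of all genes is given for these counts, so they cannot be read against a background. ACTA2 had -1.52 (adjusted p = 0.0564), MYH11 -1.88 (0.0882), ACTG2 -2.40 (0.0887) and CNN1 -1.74 (0.15), and for these 4 genes the snout and dorsal libraries did not overlap, where 14.2% of all genes were lower in snout with no overlap. LMOD1 had -0.69 (0.535) and TAGLN -0.39 (0.47), with overlap. With the pig as a block ACTA2 was called (-1.51 ± 0.38, 0.0374), where 4.15% of all genes were lower. ACTA2 and MYH11 were called without the 8-month flank library (0.0328 and 0.0361), and ACTA2 without the 7- or 8-month volar or the 7-month snout library (0.0358 to 0.0438). The matching groups of the second set, labelled volar and snout, gave 4 of 6 lower, where 3.72% of genes were called lower, namely ACTG2 at -2.81, CNN1 at -2.49, MYH11 at -2.09 and ACTA2 at -1.54 (0.0392), while LMOD1 had -0.52 (0.315) and TAGLN -0.31 (0.619). ACTA2 lost its call without any 1 of those 4 libraries (0.134 to 0.2).

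Dorsal and flank skin gave 0 calls in each set in edgeR, where 0.131% of all genes were called in the first set and 0.0394% in the second. In the first set there were 0 genes at an unadjusted p under 0.05 and 0 in DESeq2. In the second, 3 had an unadjusted p under 0.05 and DESeq2 called 2, with no share of all genes given beside these counts. The first-set values for dorsal minus flank were -1.65 for ACTG2 (adjusted p = 0.556), -1.32 for CNN1 (0.61) and -1.15 for MYH11 (0.63), and those of the groups labelled snout and dorsal in the second set were -1.73 (0.173), -1.06 (0.333) and -0.85 (0.548).

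Among other genes of the smooth muscle contractile apparatus some were called lower and some higher. Of 23 listed contractile genes tested, 2 were higher and 5 lower in volar and snout than in dorsal and flank of the first set, with a median of -0.09, where 17.6% of all genes were called higher and 14.3% lower. That share of lower genes is not far above the background and is no result about the list. In the matching groups of the second set 5 were higher and 12 lower, with a median of -0.67, where 19.8% of all genes were called higher and 20.8% lower. The lower genes named next do not stand for the list. Others were higher, CNN3 in the first set among them. MYLK, the myosin light chain kinase that switches on contraction, was lower in both, at -1.16 ± 0.26 (adjusted p = 0.00651) and -2.02 ± 0.13 (0.000111). Its means were 74.2 CPM in volar and 83.5 CPM in snout, against 144 CPM in dorsal and 214 CPM in flank libraries of the first set. MYL9, the regulatory light chain of smooth muscle myosin, had -1.45 ± 0.36 (0.0112) and -2.16 ± 0.11 (6.38e-05), and VCL, the adhesion protein vinculin, had -0.58 ± 0.12 (0.00484) and -0.77 ± 0.10 (0.00124). DES, which encodes desmin of both smooth and skeletal muscle, averaged 6.91 CPM in volar and 217 ± 367 CPM in snout (SD, n = 3), against 17.6 CPM in dorsal and 85.2 CPM in flank of the first set, and was also high in the second-set libraries labelled volar (376 CPM). The summed level of the contractile list was 2270 to 3160 CPM in volar and 2170 to 5430 CPM in snout, against 2530 to 2810 CPM in dorsal and 2390 to 4590 CPM in flank of the first set. Skeletal muscle genes were high in the snout libraries named above, and their part in this list was not tested.

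Among smooth muscle channels and receptors, 1 was higher and 6 of 13 lower in volar and snout of the first set (median -0.62), and 0 were higher and 9 of 12 lower in the matching groups of the second (median -1.27). Over all genes 14.3% were called lower in the first set and 20.8% in the second. AGTR1, the angiotensin II receptor gene, had -2.69 ± 0.39 (adjusted p = 0.000479) and -3.43 ± 0.25 (0.000153). It averaged 6.24 CPM in volar and 4.06 CPM in snout, against 26.9 CPM in dorsal and 39.5 CPM in flank of the first set. ADRA1A, the alpha-1A adrenergic receptor through which sympathetic nerves act on smooth muscle, had -1.90 ± 0.31 (0.000999) in the first set, with 1.41 CPM in volar and 2.48 CPM in snout, against 4.7 CPM in dorsal and 10.4 CPM in flank. RYR2, a calcium release channel, had -1.26 ± 0.24 (0.00263) and -2.35 ± 0.20 (0.000266). KCNMB1, the smooth muscle subunit of the calcium-activated potassium channel, had -4.27 ± 0.30 (0.00013) in the second set. EDNRA, the endothelin receptor gene, had -0.53 ± 0.09 (0.00175) in the first.

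The transcriptional regulators of smooth muscle were called about as often as genes at large. In the first set 1 of 12 was higher and 2 lower, where 17.6% of all genes were higher and 14.3% lower, and in the second 2 were higher and 2 lower, where 19.8% and 20.8% were, with medians of -0.07 and -0.08 (5 called in the first set with the pig as a block). GATA6, a factor of vascular and visceral smooth muscle, was lower in volar and snout of the first set (-2.07 ± 0.42, adjusted p = 0.00388) and in the matching groups of the second (-2.60 ± 0.26, 0.000438). MYOCD, the coactivator myocardin that drives the contractile programme with serum response factor, had -1.88 ± 0.26 (0.00174) in the second. KLF4 (1.52 ± 0.19, 0.0011), which is known to repress that programme in cultured vascular cells, and MEF2C (1.95 ± 0.33, 0.00383), which also acts in skeletal muscle, were higher there. Which cells of the whole biopsy, epidermis included, these regulator transcripts came from was not tested.

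**Figure D3:**
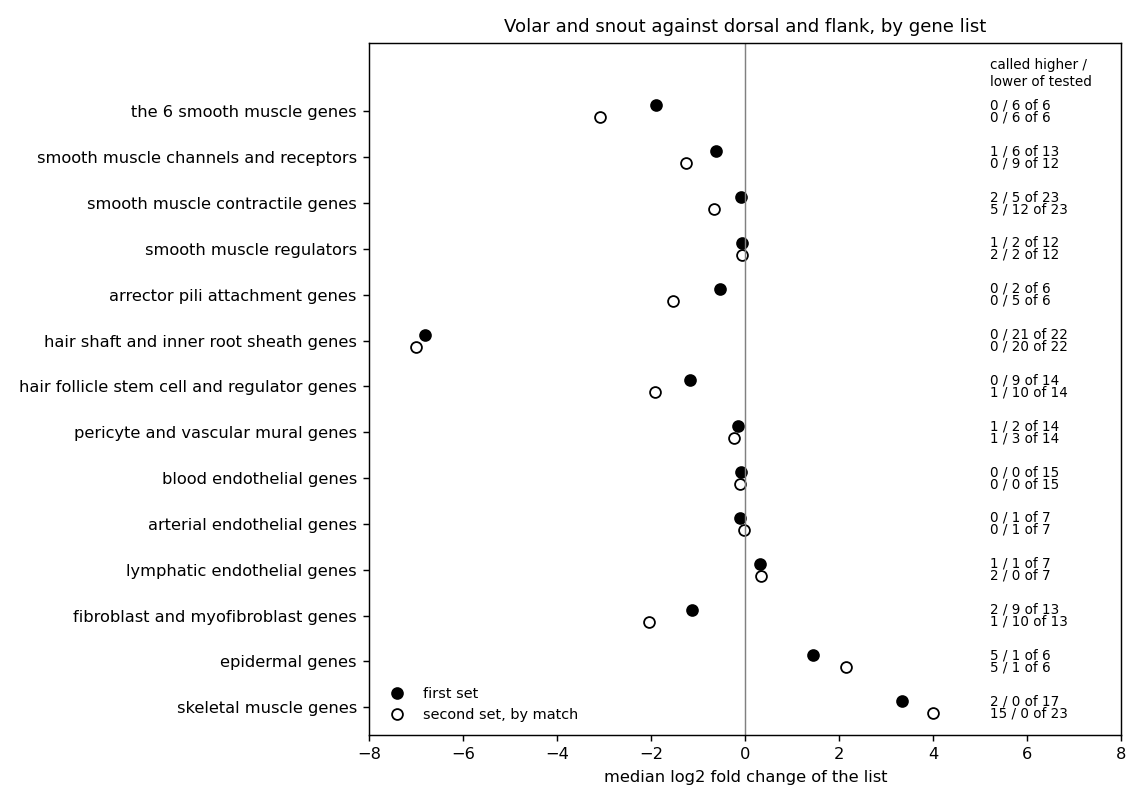
Median log2 fold change of each gene list for volar and snout against dorsal and flank, first set (filled) and matching groups of the second set (open), with the number of genes called higher and lower of those tested at the right. The 6 smooth muscle genes lie at -1.91 and -3.09, hair shaft and inner root sheath genes at -6.82 and -7.01, and blood endothelial genes at -0.09 and -0.12.

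Hair genes were lower at the same sites by larger differences, though their summed levels overlapped between snout and flank libraries of the first set. Of 22 hair shaft and inner root sheath genes, 0 were higher and 21 lower in volar and snout than in dorsal and flank of the first set, and 0 were higher and 20 lower in the matching groups of the second. Over all genes 14.3% were called lower in the first set and 20.8% in the second. KRT71, an inner root sheath keratin gene, had -8.67 ± 0.77 in the first set (adjusted p = 2.97e-05). The summed level of the list was 4.98 to 19.7 CPM in volar and 372 to 1190 CPM in snout, against 6530 to 17700 CPM in dorsal and 622 to 8990 CPM in flank libraries of the first set. It was 38.4 to 288 CPM in second-set libraries labelled flank and 748 to 1350 CPM in those labelled volar, against 14000 to 16500 CPM in those labelled snout and 7590 to 21400 CPM in those labelled dorsal. Of 14 hair follicle stem cell and regulator genes, 9 were lower in the first set and 10 lower with 1 higher in the second. LGR5, a follicle stem cell marker, averaged 0 CPM in volar and 2.8 CPM in snout, against 22 CPM in dorsal and 10.8 CPM in flank of the first set.

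Within these site groups the values of the hair and smooth muscle genes differed, and no test compared the lists with each other. Between volar and snout 19 of 22 hair shaft genes were lower in volar, with a median of -7.57 (limma-voom called 3), while the 6 smooth muscle genes had 0 calls and a median of 0.14. Of all genes 11.6% were called in that pair, in either direction. Between dorsal and flank the hair list had a median of 1.27, and the smooth muscle genes one of -0.83, with 0 calls in either in edgeR. At an unadjusted p under 0.05 there was 1 hair gene, DESeq2 called 1, and neither gave a smooth muscle gene. Single flank libraries ranked differently for the 2 lists. The 8-month pig had the highest smooth muscle sum (1680 CPM, with 4130 CPM of hair genes), the 7-month pig the highest hair sum (8990 CPM, with 517 CPM of smooth muscle genes), and the 4-month pig had 626 CPM of smooth muscle and 622 CPM of hair genes. Both lists differed between these sites in the second set. Between the groups labelled flank and volar 20 hair genes were lower and 1 higher, with a median of -5.52 (limma-voom called 12), beside a median of -2.33 and 5 calls for the smooth muscle genes. Of all genes 21.1% were called lower there.

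The genes tied to the arrector muscle's attachment are few. Of 6, 0 were higher and 2 lower in volar and snout of the first set (median -0.54), where 14.3% of all genes were lower, and 0 higher and 5 lower in the matching groups of the second (median -1.55), where 20.8% were. The count of 2 is too small to be read against its background. NPNT, the matrix protein nephronectin, which in mice anchors the arrector muscle to the follicle bulge, had -1.21 ± 0.19 (adjusted p = 0.000805) and -1.68 ± 0.16 (0.000415). It averaged 6.13 CPM in volar and 16.7 CPM in snout, against 23.8 CPM in dorsal and 23.1 CPM in flank. ITGA8, the alpha subunit of its integrin receptor, had -1.42 ± 0.13 (0.000356) in the second set. POSTN, periostin, is also a general dermal matrix gene and had -2.01 ± 0.12 (3.39e-06) in the first.

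Blood vessel endothelial genes gave no call between these groups of sites. In edgeR 0 of 15 were called for volar and snout against dorsal and flank of the first set, and likewise 0 of 15 in the matching second-set groups. At an unadjusted p under 0.05 there was 1 in each, and DESeq2 called 0 and 1. With the pig as a block 0 and 2 were called. No share of all genes is given beside the unadjusted, DESeq2 and block counts. The log2 fold changes of the 15 genes ran from -0.46 to 0.47 with a median of -0.09 in the first set, and from -0.46 to 0.34 with a median of -0.12 in the second. PECAM1, the endothelial adhesion gene, averaged 240 CPM in volar and 203 CPM in snout, against 213 CPM in dorsal and 229 CPM in flank of the first set. The summed endothelial level was 526 to 876 CPM in volar and 574 to 663 CPM in snout, against 626 to 686 CPM in dorsal and 561 to 938 CPM in flank of the first set, and 567 to 818 CPM over the second.

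Pericyte and vascular mural genes were called lower about as often as genes at large. Of 14, 1 was higher and 2 lower in volar and snout of the first set (median -0.16; DESeq2 called 5), where 17.6% of all genes were higher and 14.3% lower. In the matching groups of the second 1 was higher and 3 lower (median -0.24), where 19.8% and 20.8% were. The gene that was higher was NDUFA4L2, a mitochondrial gene common in pericytes (0.90 ± 0.10 in the first set, adjusted p = 8.71e-05, and 1.03 ± 0.11 in the second), and STEAP4 (-2.24 ± 0.37, 0.00108) and NTRK3 (-1.58 ± 0.31, 0.00305) were lower in both. RGS5, a pericyte marker, averaged 320 CPM in volar and 191 CPM in snout, against 308 CPM in dorsal and 254 CPM in flank of the first set. The summed mural level was 774 to 1120 CPM in volar and 511 to 627 CPM in snout of the first set. Dorsal had 668 to 903 CPM and flank 615 to 895 CPM. Second-set libraries labelled flank had 1190 to 1280 CPM and those labelled volar 669 to 821 CPM. Those labelled snout had 924 to 1040 CPM and those labelled dorsal 694 to 1010 CPM. Among 7 arterial endothelial genes GJA5, the connexin 40 gene, was lower in both sets (-1.12 ± 0.33, 0.0253, and -1.55 ± 0.25, 0.00323). Of 7 lymphatic genes 1 was higher and 1 lower in the first set, and 2 were higher and 0 lower in the second.

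Lists of other tissues were called between these sites as well. Fibroblast genes had 2 higher and 9 lower of 13 in the first set and 1 higher and 10 lower in the second. Their summed level averaged 26100 CPM in volar, 37100 CPM in snout, 56300 CPM in dorsal and 135000 CPM in flank of the first set. It averaged 8540 CPM in second-set libraries labelled flank and 50300 CPM in those labelled volar. Libraries labelled snout averaged 75000 CPM and those labelled dorsal 182000 CPM. Of 6 epidermal genes 5 were higher and 1 lower in each set. The summed epidermal level was 253000 to 286000 CPM in volar libraries of the first set, against at most 29500 CPM in the others. It was 478000 to 591000 CPM in second-set libraries labelled flank, against at most 30700 CPM in the others. Of the sweat and other gland genes 3 were higher and 7 lower of 13 in the first set, and 2 higher and 7 lower of 12 in the second. Their summed level was nevertheless highest in volar skin, at 612 to 2230 CPM in volar and 249 to 429 CPM in snout, against 153 to 235 CPM in dorsal and 107 to 184 CPM in flank libraries of the first set. It was 4220 to 5480 CPM in second-set libraries labelled flank and 239 to 297 CPM in those labelled volar, against 162 to 203 CPM in those labelled snout and 192 to 251 CPM in those labelled dorsal. AQP5, the water channel of secretory gland cells, went against the 7 genes of this list that were lower in each set. It was higher by 4.85 ± 0.54 in the first set (adjusted p = 0.000118) and 5.08 ± 0.35 in the second (0.00013). Of 8 dermal papilla and dermal sheath genes 1 was higher and 2 lower in the first set and 1 higher and 5 lower in the second. Their summed level averaged 127 CPM in volar and 198 CPM in snout, against 244 CPM in dorsal and 260 CPM in flank of the first set, and 93.2 CPM in second-set libraries labelled flank and 253 CPM in those labelled volar, against 302 CPM in those labelled snout and 285 CPM in those labelled dorsal. Skeletal muscle genes had 2 higher and 0 lower of 17 in the first set and 15 higher and 0 lower of 23 in the second, and the actin, myosin, calponin and leiomodin relatives 2 and 0 of 7 and 3 and 1 of 10. The part of dermal, epidermal, gland and follicle content in the smooth muscle differences was not tested.

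**Figure D4:**
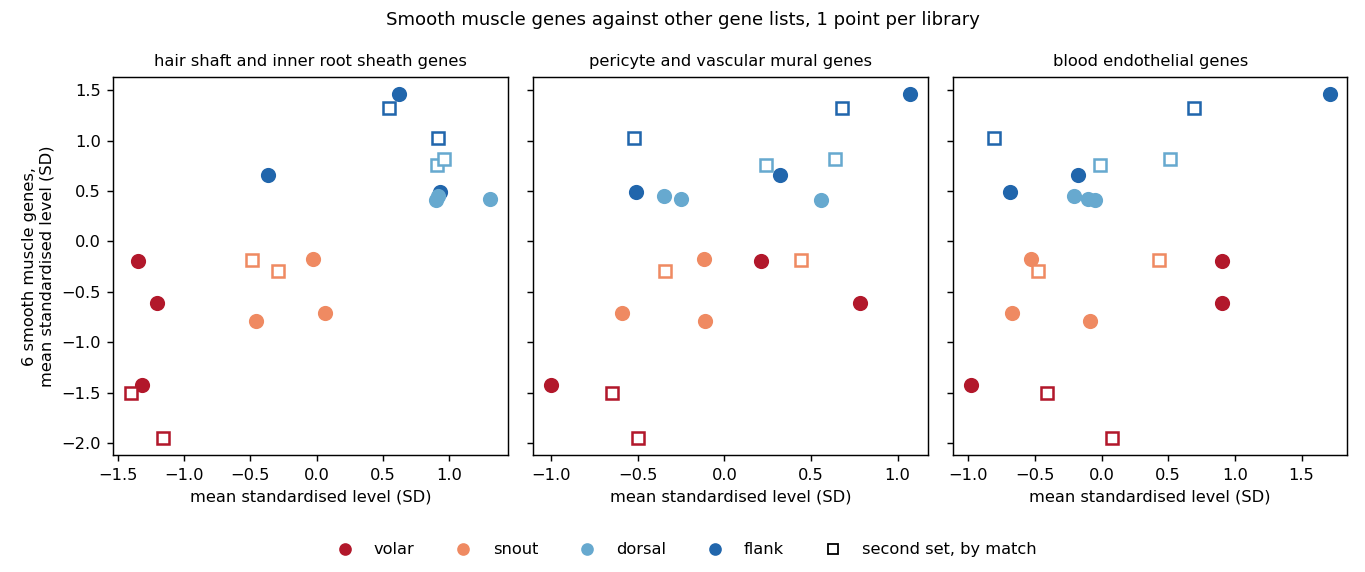
Mean standardised level of the 6 smooth muscle genes (vertical axis, SD units) against that of hair shaft and inner root sheath genes, pericyte and mural genes and blood endothelial genes (horizontal axes, SD units), 1 point per library and coloured by site; squares are second-set libraries at their matched site. Volar libraries lie lowest and snout libraries next on the hair axis, with dorsal and flank libraries overlapping above them, while the sites overlap on the mural and endothelial axes.

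Libraries of the same site were compared through their deviations from the site mean. Deviations from the site mean in the first set (n = 12 libraries of 3 pigs) of the smooth muscle mean and of the blood endothelial mean had a Pearson r of 0.84 and a Spearman rho of 0.81, or an r of 0.65 without the 2 libraries farthest from the median. For mural genes r was 0.72 and rho 0.67 (0.44 without 2), and for hair shaft genes 0.11 and 0.12 (0.25 without 2). For hair follicle regulators r was 0.10 (-0.25 without 2). With sites left in, r over the same 12 libraries was 0.91 for channels and receptors, 0.74 for fibroblast genes, 0.70 for contractile genes, 0.68 for hair shaft genes, 0.65 for attachment genes, 0.55 for mural genes, 0.46 for blood endothelial genes and -0.70 for epidermal genes, values that largely restate the differences between sites. Without the 2 farthest libraries it was 0.24 for attachment genes and 0.32 for blood endothelial genes. Mural genes then had 0.58, hair shaft genes 0.60, contractile genes 0.62 and fibroblast genes 0.66. Channels and receptors had 0.78 and epidermal genes -0.68. Over all 20 libraries r was 0.84 for fibroblast genes, 0.79 for hair shaft genes and -0.83 for epidermal genes, so hair genes were not the list with the highest r. These are descriptions, since libraries of 1 pig share an animal and all genes of a library share its depth and makeup. Among the lists, smooth muscle contractile genes gave 0.91 for the deviations, channels and receptors 0.73, the actin, myosin, calponin and leiomodin relatives 0.70 (0.71 without 2), regulators 0.64, arterial endothelial genes 0.53, fibroblast genes 0.52, attachment genes 0.51, lymphatic genes 0.50, dermal papilla and sheath genes 0.49, skeletal muscle genes 0.35, gland genes 0.15 and epidermal genes -0.58. Without the 2 farthest libraries contractile genes had 0.89, channels and receptors 0.59, attachment genes 0.48 and regulators 0.43. Arterial genes then had 0.36, fibroblast genes 0.33, dermal papilla and sheath genes 0.31 and skeletal muscle genes 0.06. Lymphatic genes had -0.02, gland genes -0.18 and epidermal genes -0.45. The r values of the hair lists were below those of the blood endothelial and mural lists, but high values were not limited to vessel lists, and no difference between r values was tested.

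**Figure D5:**
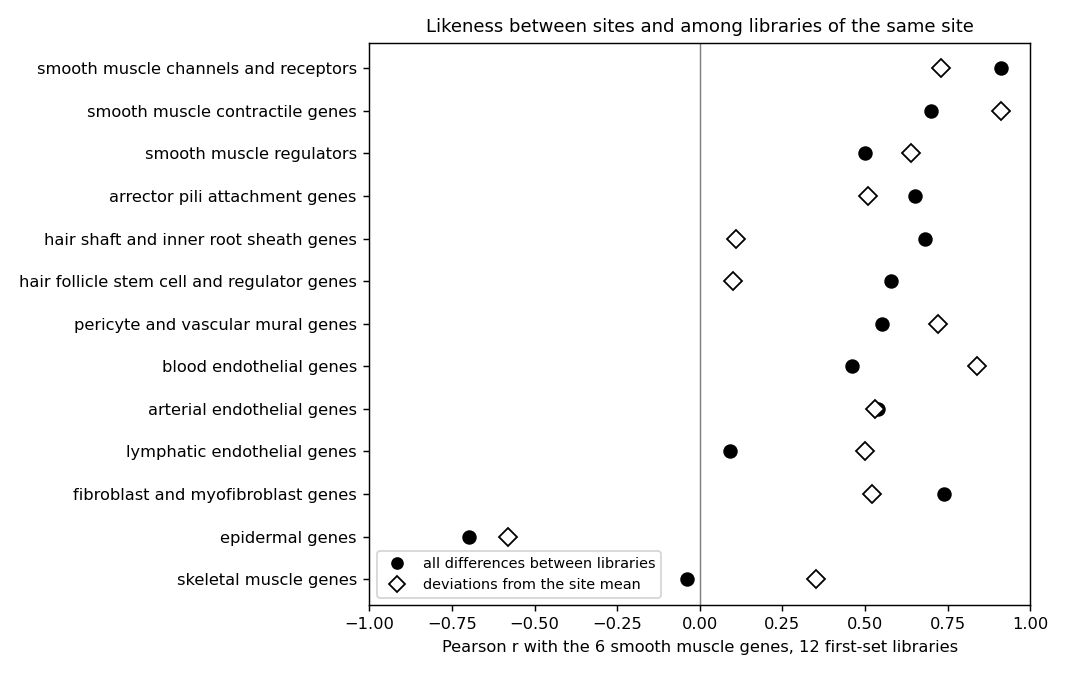
Pearson r between the mean standardised level of the 6 smooth muscle genes and that of each other list over the 12 first-set libraries, with site differences included (filled circles) and as deviations from the site mean (open diamonds). Hair shaft genes lie at 0.68 with sites included and 0.11 without, fibroblast genes at 0.74 and 0.52, and blood endothelial genes at 0.46 and 0.84.

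The 6 genes also varied together. Over 20 libraries, with each gene centred on its set, Pearson r between pairs ran from 0.76 for TAGLN and ACTG2 to 0.98 for ACTA2 and CNN1. As deviations from the site mean in the first set, ACTA2 and CNN1 kept 0.98, MYH11 and LMOD1 had 0.96, and pairs with ACTG2 other than TAGLN had 0.61 to 0.73. Pairs with TAGLN had 0.16 to 0.30, below its 0.67 to 0.75 with site differences included. Counts of the other genes of the 6 were also set against those of ACTA2 in the same library, with no test. ACTG2 counts were 3.37% to 13.7% of ACTA2 counts in volar and 3.4% to 16.2% in snout libraries, against 7.74% to 19.9% in dorsal and 16.5% to 36.3% in flank libraries of the first set. Second-set shares were 0.801% and 2.45% in libraries labelled flank, 3.17% and 4.52% in those labelled volar, against 6.62% and 11.8% in those labelled snout and 22.8% and 25% in those labelled dorsal. MYH11 counts were 30.1% to 49.5% of ACTA2 counts in volar and 48.5% to 66.2% in snout libraries, against 60.6% to 80.8% in dorsal and 65.5% to 141% in flank libraries of the first set. Second-set MYH11 shares were 16.3% and 51.9% in libraries labelled flank and 31.2% and 50.9% in those labelled volar. They were 58.5% and 64% in those labelled snout and 69.7% and 110% in those labelled dorsal. The first-set ranges of ACTG2 overlapped among volar, snout and dorsal and between dorsal and flank, and those of MYH11 between volar and snout, snout and dorsal, and dorsal and flank. LMOD1 and TAGLN shares were instead highest in first-set snout libraries, at 14.9% to 16.4% and 2.81% to 4.74%. Volar had 6.43% to 9.03% and 1.01% to 2.75%, and dorsal and flank at most 10.8% and 2.07%. In the second set LMOD1 was highest in libraries labelled volar (11.6% and 12.6%) and TAGLN in those labelled flank (3.6% and 5.45%). First-set CNN1 shares were 7.41% to 12% in volar and 10.6% to 12.6% in snout, against at least 12.8% in dorsal and flank.

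By likeness to the mean of the 6, over 20 libraries centred on their set and among 9850 other genes with a symbol and a mean of at least 5 CPM, MYLK came first (Pearson r = 0.986, with 0.972 in the first set and 0.996 in the second). It was followed by INPP4A, a phosphoinositide phosphatase gene (0.969), ADAMTS5, an aggrecanase gene (0.967), PCDH18, a protocadherin gene (0.965), PYGB, brain glycogen phosphorylase (0.963), and FHL5 (0.962). ITGBL1 (0.959), MYL9, SWAP70 and GHR, the growth hormone receptor gene (each 0.958), completed the first 10. Taken alone, ACTA2, MYH11 and CNN1 were each closest to MYLK (0.964, 0.981 and 0.982). ACTG2 was closest to DAAM2, a formin family gene (0.97), LMOD1 to FLOT2 (0.949) and TAGLN to TMEM98 (0.94). These r values are measured over libraries that share site and set, and many genes follow the sites.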

How the data were processed

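Skin RNA was purified with a kit for fibrous tissue and sequenced as stranded mRNA libraries, per the labels' protocols. The deposited table holds estimated counts per gene, and the submitters' processing notes name Salmon. No version, build or annotation is given in the sources used here, so no coordinates are printed. Values that were not whole (42.2%, tolerance 1e-09) were rounded for the tests. A symbol was found for 14821 of 19280 identifiers. Groups are the deposited labels, and p-values measure the spread between biopsies of different pigs.

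Site means were compared within each set with quasi-likelihood F tests of edgeR 4.0.16 (robust, R 4.3.3). Scaling was TMM over all 20 libraries, low genes were removed with filterByExpr (count minimum 10, total 15), and p-values were adjusted by Benjamini-Hochberg over all genes. This left 15292 genes with 8 residual degrees of freedom in the first set and 15241 with 4 in the second. The procedure was tested on simulated data. Alternatives were DESeq2 1.42.0, limma-voom (limma 3.58.1), other scalings and filters, the pig as a block, all 20 libraries in 1 fit, and single libraries left out. Libraries pair by pig, since the labels give each pig all sites. Deviations from the site mean of libraries of 1 pig had a median r of 0.18 in the first set (lowest 0.03, highest 0.40) and of 0.30 in the second (lowest 0.14, highest 0.47). List levels are means of standardised log2(CPM + 0.5), or summed CPM.

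The 6 genes, the 16 other lists and the tests were chosen with earlier results of these data known. Named genes are the 6, per list up to 4 called genes with the smallest adjusted p in a comparison, and those with the pattern most like the 6. PECAM1, RGS5, DES, ACTB, ACTG1, MYH9, EN1 and ALX1 were added after their values were seen. List symbols that matched no identifier were not analysed here.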

Additional observations from a re-analysis of the deposited data

Results flagged for a closer look

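In 4 groups of 5 libraries 1 library stood far above the others (gap to the nearest over the range above 0.71). CNN1 was at 166 CPM in the 8-month flank library, against 0.906 to 43.1 CPM in the other libraries labelled flank, and at 22.4 CPM in the 8-month volar library, against 4.86 to 8.49 CPM in the others labelled volar. With the second set placed by the match, LMOD1 was at 54.1 CPM in the 8-month flank library, against 13.5 to 24.5 CPM in the other flank libraries, and CNN1 at 15.7 CPM in the 7-month snout library, against 6.47 to 8.49 CPM in the other snout libraries. Of 48 groups tested, 24 each way, chance flags about 1 in 20.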

How the results depend on the processing

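For volar against dorsal in the first set, the count of called genes was 1, and it was 2 with RLE scaling, upper-quartile scaling, limma-voom or the 20 most abundant genes left out, 4 with DESeq2, 0 when a log2 fold change of at least 1 was required, 6 over all 20 libraries placed by the match (with a set term or a pig block) and 0 over all 20 as labelled. Snout against dorsal, with 0 calls, gave 1 with upper-quartile scaling, limma-voom or the 20 most abundant genes left out, and 4 with DESeq2, with the libraries of these sites alone, and over all 20 placed by the match (set term or pig block). Volar against snout gave 1 and 2 over all 20 placed by the match (set term, pig block). As labelled over all 20, volar against flank and snout against flank gave 0. The second-set groups labelled snout and dorsal gave 2 with DESeq2. Calls were also lost. With the libraries of the compared sites alone TAGLN lost its call for volar against dorsal (adjusted p = 0.0661, while MYH11 gained one at 0.0414), ACTA2 (0.0542) and LMOD1 (0.11) theirs for volar against flank, and CNN1 its call for snout against flank (0.0541). LMOD1 lost its call for volar against flank with no count filter (0.0536) and in limma-voom (0.0739). With no count filter it also lost its call for volar and snout against dorsal and flank of the first set (0.0504). A required log2 fold change of at least 1 removed TAGLN from volar against dorsal and from volar and snout against dorsal and flank in both sets. The second-set groups labelled flank and volar gained TAGLN with DESeq2 (0.0425) and upper-quartile scaling (0.049). The causes were not tested. These counts are given here without the share of all genes called under each setting, so they show only how calls of the 6 genes moved. The replicate block, which pairs libraries by pig, gave 4 calls for volar against dorsal and 1 for snout against dorsal of the first set. In an edgeR F test for any difference among the 4 sites of the second set, TAGLN was called (adjusted p = 0.0452). It lost that call with the block (0.0519). For the second-set groups labelled flank and volar against snout and dorsal, TAGLN kept its call with the block (0.0262). The block changed no other call of the 6 genes.

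Counts without single libraries ran from 0 to 3 for volar against dorsal, 4 to 6 for volar against flank, 2 to 4 for snout against flank and 0 to 2 for snout against dorsal in the first set, and from 5 to 6 for each comparison of volar and snout with dorsal and flank.

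Some directions turned. For volar minus snout in the first set, ACTA2 was -0.20 placed by the match with a set term, -0.28 with a pig block and -0.72 as labelled. MYH11 was -0.14 in limma-voom, -0.19 with the replicate block, -0.60 and -0.80 placed by the match (set term, pig block) and -1.22 as labelled. CNN1 was -0.10 with the replicate block, -0.40 and -0.65 placed by the match and -1.27 as labelled, and ACTG2 -0.26 placed by the match with a pig block and -1.08 as labelled. As labelled over all 20, TAGLN was 0.05 for snout minus flank, and dorsal minus flank was 0.62 for ACTA2, 0.19 for MYH11, 0.23 for CNN1, 0.33 for TAGLN, 0.10 for ACTG2 and 0.14 for LMOD1, against first-set values of -1.65 for ACTG2, -1.32 for CNN1 and -1.15 for MYH11. Without single libraries, volar minus snout ran from -0.06 to 0.83 for ACTA2, -0.71 to 0.46 for MYH11 and -0.72 to 0.68 for CNN1, dorsal minus flank from -0.67 to 0.02 for ACTA2 and -0.85 to 0.22 for LMOD1, and the second-set groups labelled snout minus dorsal from -0.50 to 0.28 for TAGLN and -0.11 to 0.18 for LMOD1.

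Upper-quartile scaling moved the median over all genes by -0.103 for volar minus dorsal in the first set and gave 45.1% higher genes among all calls, against 58.3% with TMM; no direction of the 6 genes turned under it. Depth limits ACTG2 in second-set libraries labelled flank (10 and 18 counts), and 2 or 3 pigs a set limit all tests.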
